A study of Drosophila melanogaster with 2 samples.

Results

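The microRNA genes of Drosophila melanogaster were examined for nearby peaks of Oli in whole embryos. A gene counted as a member when its Ensembl symbol began with mir- and it lay on one of the 6 chromosome arms with peaks (2L, 2R, 3L, 3R, 4 and X). This gave 260 of the 17683 annotated genes that are not transposable elements. The bantam and let-7 genes were among them, under the symbols mir-ban and mir-let7, and mir-263a was listed as mir-bft. Members up to 10 kb apart were counted as 1 locus, which left 198 loci. At 140 loci every member lay inside a coding gene, at 56 none did, and 2 were mixed. The hairpins measured between 50 and 174 bp, with a median of 92 bp.

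The series held 1 group, with no second condition. It comprised 2 biological replicates of embryos aged 6 to 18 h, both sexes pooled, from a transgenic line that stably carried Oli fused at its C terminus to GFP. Chromatin had been sheared to between 200 and 800 bp by sonication, and the fusion protein was pulled down with an antibody against GFP. Peaks therefore report the tagged protein in the whole animal, and the assay holds no expression values by which a tissue could be checked. The deposited data were 4 peak lists: 30000 peaks for each replicate, 30000 for the pooled replicates, and 6496 peaks that passed a threshold of irreproducible discovery rate (IDR), a measure of how well peaks rank alike in replicates. All 4 lists give a signal per peak, which is the authors' value and serves only to rank peaks within its list. The number of reads behind the lists is unknown, and the replicate lists were made against a shared control.

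A microRNA starts as a hairpin within a longer primary transcript. Drosha and its partner Pasha cut out the hairpin, Dicer-1 trims it to a short duplex, and one strand is loaded into AGO1, where the seed at its 5′ end pairs with messenger RNAs. Hairpins in introns are usually made from the host gene's transcript, whereas those outside coding genes have transcripts of their own, so the start site that governs a microRNA can lie far from its hairpin. Oli is the fly relative of the vertebrate Olig proteins, basic helix-loop-helix factors known from the nervous system, and such factors bind E-boxes, the motif CANNTG.

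The mature products of selected members of the 15 loci with the highest peaks, and of their cluster neighbours, are shown first, because their seeds show which members are related. The selection favours members with known roles or shared seeds and leaves out others of these loci, among them mir-9377 and mir-2496. They were read from the RefSeq annotation on the release 6 genome, the assembly also called dm6, and capitals mark the seed, bases 2 to 8. The product of the arm named first in that annotation is given for each.
mir-279: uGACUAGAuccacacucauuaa
mir-996: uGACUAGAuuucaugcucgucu
mir-282: uAGCCUCUacuaggcuuugucugu
mir-92a: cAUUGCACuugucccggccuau
mir-92b: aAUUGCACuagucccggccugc
mir-ban: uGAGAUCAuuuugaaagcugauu
mir-375: uUUGUUCGuuuggcuuaaguua
mir-2c: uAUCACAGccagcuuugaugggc
mir-13a: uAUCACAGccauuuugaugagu
mir-13b-1: uAUCACAGccauuuugacgagu
mir-277: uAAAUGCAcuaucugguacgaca
The neighbours mir-279 and mir-996 share the seed GACUAGA, mir-92a and mir-92b share AUUGCAC, and mir-2c, mir-13a and mir-13b-1 share AUCACAG.

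The DNA under selected summits on the release 6 genome is shown next, as 101 bp centred on the IDR summit, on the plus strand. The windows of mir-279 and mir-282 hold the highest signals of all members, and those of mir-9378, mir-955 and mir-2282 hold the E-box CATATG. Capitals mark every CANNTG.
mir-279, chr3R:29214392-29214492: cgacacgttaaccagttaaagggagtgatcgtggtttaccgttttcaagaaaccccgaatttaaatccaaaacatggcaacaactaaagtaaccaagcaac
mir-282, chr3L:3250155-3250255: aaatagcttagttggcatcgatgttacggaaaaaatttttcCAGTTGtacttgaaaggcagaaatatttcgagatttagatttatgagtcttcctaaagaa
mir-9378, chr2L:10752065-10752165: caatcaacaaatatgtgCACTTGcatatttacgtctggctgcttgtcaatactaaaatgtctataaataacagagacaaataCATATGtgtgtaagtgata
mir-955, chr3L:3300494-3300594: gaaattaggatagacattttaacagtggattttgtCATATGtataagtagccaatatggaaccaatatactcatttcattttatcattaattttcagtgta
mir-2282, chr3L:3411827-3411927: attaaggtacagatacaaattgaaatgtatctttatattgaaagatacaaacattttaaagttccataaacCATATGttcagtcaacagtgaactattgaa
The window with the highest signal, beside mir-279, holds no CANNTG, and that of mir-282 holds 1, CAGTTG.

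An IDR summit lay within 2000 bp of a hairpin at 35 of the 198 loci, or 17.7% (exact Clopper-Pearson 95% interval 12.6 to 23.7%). By position it was 16 of 56 loci outside coding genes (28.6%, 17.3 to 42.2%), 18 of 140 inside them (12.9%, 7.8 to 19.6%) and 1 of the 2 mixed loci. A hairpin of median length centred on any position of the 6 arms would have had a summit within that distance at 15.7% of positions. That background was 17.1% for positions inside coding genes, which lies within the interval of the loci there. It was 12.7% for positions outside, which lies below the interval of those loci. The units differ, since the background is for 1 hairpin and a locus can hold several. For loci of a single hairpin outside coding genes (9 of 44, 9.8 to 35.3%), the interval held the 12.7%. All positions were counted, also those in long stretches without a summit. One such stretch holds mir-2279, 1964216 bp from the nearest IDR summit. How far these stretches lower the background was not tested. The intervals cover counting error only, and the difference between the classes was not tested. With a longer list, the 12992 strongest pooled peaks, it was 19 of 56 loci outside coding genes (33.9%, 21.8 to 47.8%). Inside them it was 39 of 140 (27.9%, 20.6 to 36.1%). No share of positions was computed for this list, so these shares cannot be set against a background.

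Counted singly, 48 of the 260 members had an IDR summit within 2000 bp (18.5%, 13.9 to 23.7%). These were 22 of 166 hairpins inside coding genes (13.3%, 8.5 to 19.4%) and 26 of 94 outside (27.7%, 18.9 to 37.8%), where members of a cluster share their peaks. A cluster also covers more sequence than one hairpin. Among the 27 loci of more than 1 member, which held 89 members, 13 had a summit (48.1%, 28.7 to 68.1%), against 22 of 171 single hairpins (12.9%, 8.24 to 18.8%). Single hairpins had one at 9 of 44 loci outside coding genes (20.5%, 9.8 to 35.3%) and at 13 of 127 inside (10.2%, 5.56 to 16.9%), so the interval of the single hairpins outside coding genes held the background of 12.7%.

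Other genes, which are mostly longer than a hairpin, were more often within 2000 bp of a summit. The share was 34.6% for all genes other than microRNAs, 36.4% for coding genes, 28.6% for other non-coding RNA genes, 25.9% for transfer RNA genes and 45.4% for small nucleolar RNA genes. The loci outside coding genes thus stood at the level of other non-coding RNA genes, and those inside coding genes stood below every one of these classes.

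The classes were also followed over distance, as the plot of shares by distance shows. Within 500 bp, 2 of 94 hairpins outside coding genes had a summit (2.13%, 0.259 to 7.48%), against 4.8% of positions there. Within 1500 bp they were 22 of 94 (23.4%, 15.3 to 33.3%), against 10.4% of positions, and within 5000 bp 43 of 94 (45.7%, 35.4 to 56.3%), against 23.1%. Inside coding genes the share was 3.61%, 10.8% and 34.9% at those distances, against 5.09%, 13.5% and 34% of positions. So the interval for hairpins outside coding genes lay above the share of positions at 1500 bp and 5000 bp and not at 500 bp. Those inside coding genes had the share of their positions within the interval at each of the 3 distances. These intervals treat hairpins as independent, although members of a cluster share their peaks, so they are too narrow. At 2000 bp the interval of single hairpins outside coding genes (9 of 44, 9.8 to 35.3%) held the 12.7% of positions.

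**Figure D1:**
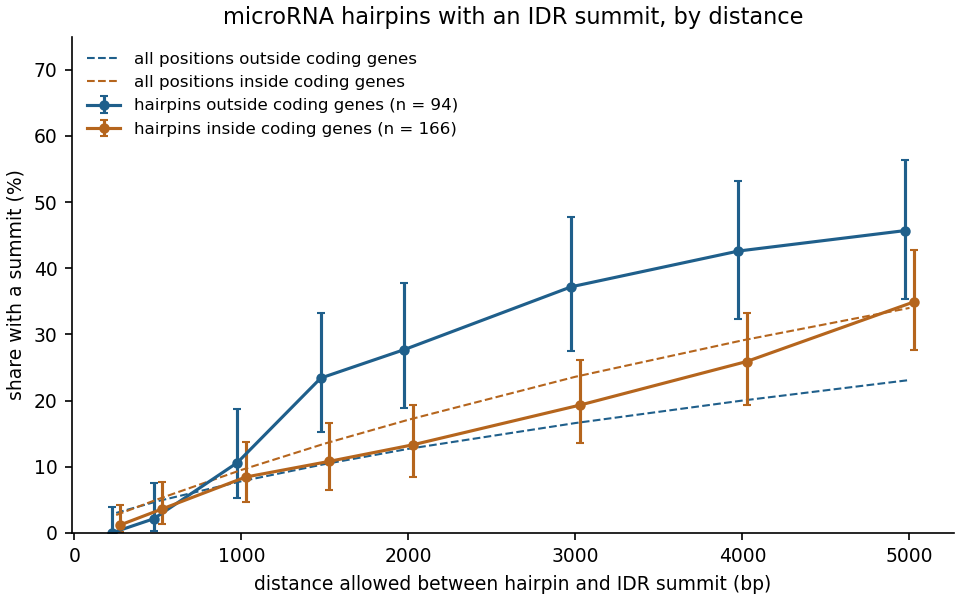
Share of hairpins with an IDR summit (y axis, percent) within the distance on the x axis (bp), for 94 hairpins outside and 166 inside coding genes. Points with bars are shares with exact 95% intervals, which treat clustered hairpins as independent, and dashed lines are shares of all positions of the same kind. At 2000 bp hairpins outside coding genes stand at 27.7%, against 12.7% of positions, and those inside at 13.3%, against 17.1%.

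Of 100 members in an intron of a same-strand coding gene, 21 had a summit (21%, 13.5 to 30.3%). None of 17 members in a UTR exon had one, which allows a share of up to 19.5%, and none of 19 in a coding exon, which allows up to 17.6%. Hairpins that fill a whole short intron, with both ends within 5 bp of the splice sites, are candidates for the mirtron route, in which splicing takes the place of Drosha. There were 34 of these, 31 of them among the 100 intronic members above and 3 among the 19 that overlap a coding exon, and 2 had a summit (5.88%, 0.72 to 19.7%), mir-4911 in ND-23 and mir-1012 in Lerp. The background of 17.1% for positions inside coding genes lay within the intervals of the intronic, UTR-exon, coding-exon and whole-intron members alike. Of the 28 loci outside coding genes with an annotated non-coding host transcript, 11 had a summit (39.3%, 21.5 to 59.4%), against 5 of 28 with none annotated (17.9%, 6.06 to 36.9%). These 2 intervals overlapped. The background of 12.7% for positions outside coding genes lay below the first and within the second, though a cluster covers more sequence than 1 hairpin. By chromosome arm the count was 7 of 39 loci on 2L, 8 of 40 on 2R, 5 of 30 on 3L, 8 of 48 on 3R, 0 of 2 on 4 and 7 of 39 on X. No share of positions was computed by arm, so these counts do not show whether an arm differed from its background.

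The 35 loci had 46 IDR peaks between them, 20 at loci outside coding genes, 25 at loci inside and 1 at a mixed locus. Their signal had a median of 262.4 and ran from 169.3 to 2775.5, against a median of 295.2 over all IDR peaks. Among the 500 highest IDR peaks were 3 of the 46 (6.52%, 1.37 to 17.9%), against 7.7% of all IDR peaks. The 3248 strongest IDR peaks held 20 of the 46 (43.5%, 28.9 to 58.9%). Member peaks were thus spread over the list much as other peaks were, with a few high ones. The authors' −log10 q-value of the 46 ran from 2.896 to 3.731, and 3.731 was the highest value of the whole list.

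No summit fell inside a hairpin (0 of 46, which allows up to 7.71%). The summits lay upstream of the nearest hairpin in 27 cases and downstream in 19, at a median distance of 924 bp, and 10 were within 500 bp. At loci outside coding genes 12 of 20 were upstream, and at loci inside coding genes 14 of 25. For 18 of the 46 the summit was 500 bp or less from an annotated start site (39.1%, 25.1 to 54.6%), against 35.7% of all IDR peaks. This was 10 of 20 at loci outside coding genes and 8 of 25 inside. For 12 of the 18 the nearest start site belonged to a coding gene, and for 6 to a non-coding RNA gene. Elsewhere, 15 peaks lay in introns of coding genes (32.6%, against 42.9% of all IDR peaks), 7 between genes (15.2%, against 18.4%) and 6 within non-coding genes (13%, against 1.57%). The last share follows in part from the choice of members, since many of them lie in long non-coding RNA genes.

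**Figure D2:**
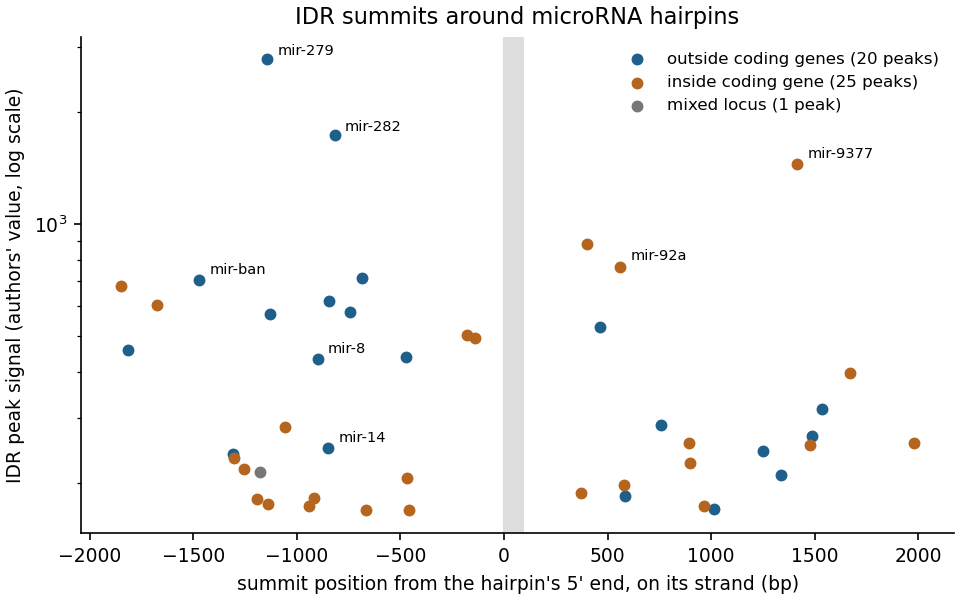
Signal of each of the 46 IDR peaks (y axis, authors' value, log scale) by the position of its summit from the 5′ end of the nearest hairpin on that hairpin's strand (x axis, bp; negative is upstream). The grey band is a hairpin of the median 92 bp and colours give the class of locus; no summit lies inside a hairpin, and the highest, 2775.5 beside mir-279, lies 1143 bp upstream.

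The highest member peak belonged to the pair mir-279 and mir-996. Both keep neurons that sense carbon dioxide from forming in the wrong place, in fly sensory organs. The peak had an IDR signal of 2775.5, rank 52 of 6496. It had rank 67 in replicate 1 (signal 1380.6) and rank 46 in replicate 2 (signal 1408.3), and its summit in both replicates was 3 bp from the IDR summit. The summit lay 1143 bp upstream of mir-279 and 120 bp upstream of the start of lncRNA:CR31044, the non-coding gene that hosts both hairpins. Both replicates placed this peak close to the top of their lists.

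The next locus was mir-282, with an IDR signal of 1738 and rank 182. Its replicates were further apart: rank 86 in replicate 1 (signal 1302.5) and rank 571 in replicate 2 (signal 455). The summit lay 817 bp upstream of the hairpin and 389 bp upstream of the start of its host lncRNA:CR43626. Both leading loci therefore had their peak just upstream of the start of a non-coding host on the hairpin's own strand.

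The third locus was mir-9377, in an intron of Tis11, which encodes a zinc-finger protein that promotes messenger RNA decay. It had 2 peaks, both downstream of the hairpin and over 5000 bp from the nearest start site. The higher, at 1364 bp from the hairpin, had a signal of 1449.8 and rank 275, with rank 429 in replicate 1 and 183 in replicate 2. The nearer, at 352 bp, had a signal of 882.3 and rank 676, with rank 861 in replicate 1 and 563 in replicate 2. Replicate 2 ranked both higher than replicate 1 did.

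The microRNAs mir-92a and mir-92b, which act in neural stem cells of the fly brain, lie within jigr1 and had a peak with a signal of 767.5 and rank 857. It ranked 906 in replicate 1 and 898 in replicate 2. Its summit was 468 bp from mir-92a, downstream of that hairpin, and 178 bp upstream of a jigr1 start site. The mir-92b hairpin itself was 4330 bp from any IDR summit, so this cluster counted through mir-92a.

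The growth regulator bantam (mir-ban), which promotes proliferation and blocks cell death, had peaks on both sides. The upstream peak, at 1471 bp, reached a signal of 707.1 and rank 969, with rank 886 in replicate 1 and 1012 in replicate 2. The downstream peak, at 385 bp, reached 528.3 and rank 1542. Both fell inside lncRNA:CR43334, the long transcript that carries bantam, and not at its start sites. A weaker summit, with a signal of 171 and rank 5861, lay 70 bp inside a start site of that transcript, 13668 bp from the hairpin. In the plot of ranks by list, bantam was among the loci whose ranks stayed close together.

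The cluster of mir-2c, mir-13a and mir-13b-1 belongs to the family that represses the cell death genes reaper, grim and sickle in flies. Its peak had a signal of 571.2 and rank 1360, with rank 1275 in replicate 1 and 1424 in replicate 2. The summit lay 1130 bp upstream of mir-2c, within lncRNA:CR45911. A further cluster of the family, mir-2a-1, mir-2a-2 and mir-2b-2 in an intron of spi, had a peak of 169.9, rank 5901, near the foot of the list and 668 bp upstream of mir-2b-2.

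The seed AUCACAG was carried by 14 members at 7 loci, and 3 of the 7 had an IDR summit: the 2 clusters above and mir-308. The loci without one hold mir-13b-2, mir-2b-1, mir-11, and mir-5 with the mir-6 copies. The seed AUUGCAC was carried by 6 members at 2 loci, and both had a summit. The second of these is the cluster of mir-310, mir-311, mir-312 and mir-313, with a peak of 245.1, rank 4020, located 457 bp upstream of a start of qsm. For GACUAGA the count was 1 of 2 loci. It came through mir-279, since mir-996 was 2742 bp from the nearest summit and mir-286 was at the other locus. For CUUUGGU, the seed of mir-9a, mir-9b and mir-9c, it was 0 of 2. Beside these small counts, the share over all loci was 35 of 198 (17.7%), with 15.7% of positions as background, and nothing particular to a seed can be read from them.

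Of the remaining leading loci, mir-2496 had 3 peaks, with signals of 712.8, 439 and 316.9. The first was 252 bp upstream of a start of PIG-K, which acts in attaching lipid anchors to proteins, and the third 473 bp upstream of a start of east. For the first and second, the strongest overlapping peak in each replicate was the same. This does not show whether a replicate list also holds a weaker peak for either. The locus mir-4968, in an intron of Mob2, which encodes a kinase partner, had signals of 682.4, 198.1 and 169.3, the last 37 bp upstream of a Mob2 start site. At mir-4981 the signal was 618.8, and its ranks were 2030 in replicate 1 and 777 in replicate 2. At mir-281-1, inside the antizyme gene Oda, it was 603.7.

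mir-375, whose relative in mammals is known from pancreatic islets, had signals of 578.1 and 286.5, upstream and downstream of the hairpin. mir-9378, in CG17124, had 501.7 and 206.3, at 177 bp and 469 bp from the hairpin. At mir-2491, in an intron of the gastrulation gene fog, the signal was 494.3 at 141 bp, the nearest summit to a hairpin among the leading loci. The summit near mir-277, which acts in amino acid metabolism, had 457.9 and lay 1817 bp upstream. Its neighbour mir-34, which protects ageing fly neurons, was 2731 bp from it and beyond the 2000 bp limit. mir-8, the fly member of the miR-200 family, which acts in growth, had a peak of 431.4, rank 2014, that lay 156 bp upstream of its host lncRNA:CR43650. The replicates ranked it 2068 and 2157, close to each other. The next locus below these 15 was mir-2493, with a signal of 397, and the other loci had their highest peak below that.

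**Figure D3:**
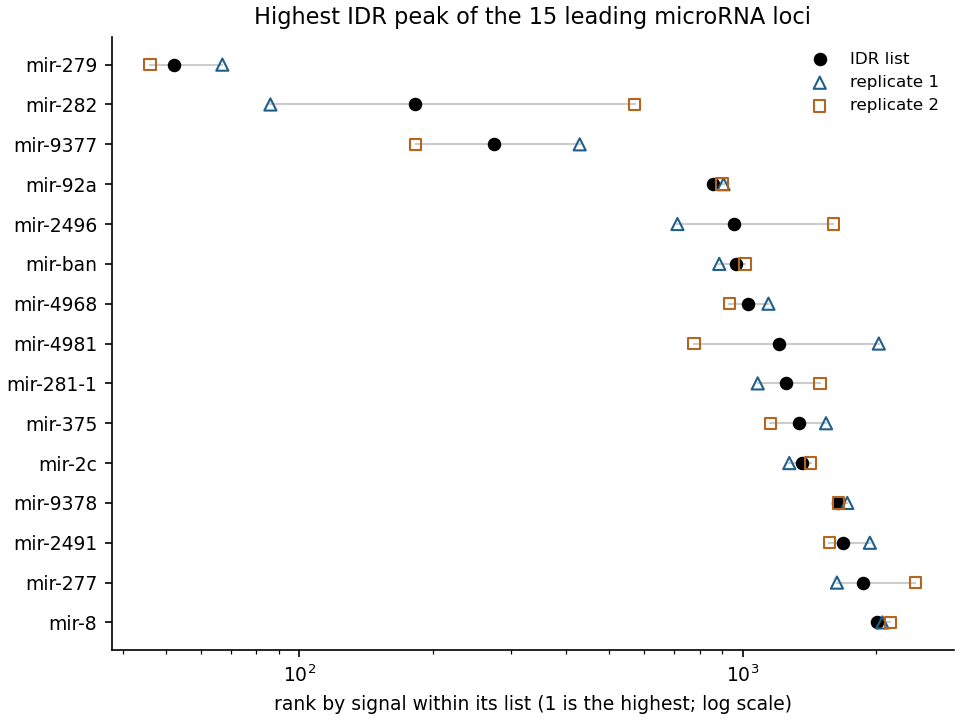
Rank by signal (x axis, log scale, 1 is the highest) of the highest IDR peak of the 15 leading loci, each named for its nearest hairpin, in the IDR list (filled circles) and of its partner in replicate 1 (triangles) and replicate 2 (squares). mir-279 ranks 52, 67 and 46, mir-282 ranks 182, 86 and 571, and mir-8 ranks 2014, 2068 and 2157.

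Other well-known members stood lower or without a summit. mir-14, which limits cell death and fat storage, had a peak of 248.5, rank 3964, at 68 bp inside the start of lncRNA:CR43651 and 850 bp upstream of the hairpin. The pair mir-305 and mir-275 had one of 184.5, with rank 10017 in replicate 1 and 4087 in replicate 2, nearest to the start of muc. The overlapping hairpins mir-iab-4 and mir-iab-8, which repress Hox genes from opposite strands, shared one of 174.1, rank 5755. It ranked 9092 in replicate 1 and 3680 in replicate 2, so the replicates differed in how high they placed it.

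mir-124, a microRNA of neurons, was 6835 bp from the nearest IDR summit. Its locus counted only through mir-287, whose peak had a signal of 240 and rank 4104. That summit was 15880 bp from the Oli gene itself. The muscle microRNA mir-1 was 7347 bp from a summit, mir-9a, which acts in sensory organ precursors, 3131 bp, and mir-7, which acts in the eye and other sensory organs, 4912 bp. mir-bft was 3322 bp away, mir-10 in the Antennapedia complex 2926 bp, mir-33 3399 bp, mir-315 6613 bp and mir-184 8914 bp. The temporal cluster of mir-100, mir-let7 and mir-125 was between 5178 and 6069 bp from a summit. Beyond 10 kb lay mir-993 at 13256 bp, mir-263b at 15893 bp, mir-278 at 17883 bp, mir-190 at 18536 bp, mir-137 at 26692 bp and mir-1000 at 34990 bp. The median distance over all 260 members was 6858.5 bp.

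At the 2000 bp limit itself, mir-281-2 at 1893 bp and mir-1012 at 1922 bp were just inside, and mir-276a at 2081 bp, mir-2498 at 2120 bp and mir-1009 at 2185 bp just outside.

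Every one of the 46 peaks overlapped a peak in both replicate lists by at least 1 bp (46 of 46, 92.3 to 100%), as did 99.5% of all IDR peaks. The IDR list keeps peaks that rank alike in these same replicates, so this overlap follows largely from the choice of list. Among the 6496 strongest of each replicate, 39 of 46 had a partner in both (84.8%, 71.1 to 93.7%), against 82.3% of all IDR peaks. Of the 35 loci, 29 had a summit in both of these shortened lists. A width of 416 bp was shared by 33 of the 46 peaks, against 72% of all IDR peaks, and the summit of each of these is its midpoint.

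The longer lists placed a summit within 2000 bp of many more loci, at shares near or somewhat above those of any position. The pooled list did so at 103 loci (52%, 44.8 to 59.2%), against 46.1% of positions. Replicate 1 did so at 108 (54.5%, 47.3 to 61.6%), against 45.7%, and replicate 2 at 100 (50.5%, 43.3 to 57.7%), against 47.7%. A locus of several members covers more sequence than the single hairpin behind these backgrounds. Counted singly, hairpins had a summit at 51.2% in the pooled list, 53.5% in replicate 1 and 46.5% in replicate 2. Both replicates had a summit at 87 loci, 1 of them at 34 and neither at 77. Loci outside coding genes had one at 35 of 56 in the pooled list, 34 in replicate 1 and 36 in replicate 2. Loci inside had one at 67, 73 and 63 of 140. No share of positions was computed by class for these lists. Restricted to their 6496 strongest peaks, both replicates gave 34 loci. These were 15 of 56 loci outside coding genes in replicate 1 and 16 in replicate 2, and 18 and 17 of 140 inside. The IDR list was made from these same replicates. The higher share outside coding genes in each is therefore not separate support for that of the IDR list.

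A hairpin inside a longer gene can be read from that gene's own start, so start sites of same-strand hosts upstream of the hairpin were examined too. This readout was added after the counts above were known. Of 155 loci with such a host, 42 had an IDR summit within 500 bp of an upstream host start (27.1%, 20.3 to 34.8%). The count was 34 of 127 inside coding genes (26.8%, 19.3 to 35.4%) and 8 of 28 outside (28.6%, 13.2 to 48.7%). No background was computed for upstream host starts. For any start site, the share was 18.8% of coding genes and 9.68% of other non-coding RNA genes. The like shares of the 2 classes of loci therefore do not show that the classes are alike. At 10 of the 42 a summit at a host start was also within 2000 bp of a hairpin. Taking the highest such summit of each locus, 8 of 42 were within that distance, the median distance to the hairpin was 7586.5 bp, and 32 of 42 lay upstream of the start site. The loci mir-967 and mir-4968 were the 2 at which a weaker summit, and not the highest, was near the hairpin. Of 126 hosted loci with no summit near the hairpin, 29 had one at the host start (23%, 16 to 31.4%). With either place counted, 64 of 198 loci had a summit (32.3%, 25.9 to 39.3%). No background was computed for this count or for the 29 of 126. Counting both places searches more sequence per locus, so the 32.3% cannot be set against the 15.7% of positions given above.

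Counted by host gene at any start site, 37 of 128 same-strand coding hosts had a summit within 500 bp (28.9%, 21.2 to 37.6%), against 18.8% of all coding genes. The hosts have a median of 2 start sites, against 1 for coding genes, so a host has more places to be counted. Of 37 non-coding hosts, 10 had one (27%, 13.8 to 44.1%), against 9.68% of other non-coding RNA genes. The part of gene length or number of starts in these differences was not tested.

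Several hosts with high peaks carry microRNAs whose hairpins are far away. The start of spi, the ligand of the epidermal growth factor receptor and host of mir-2a-1, mir-2a-2 and mir-2b-2, had a summit with a signal of 1956.2 and rank 134, located 5539 bp from the nearest hairpin. Btk, a tyrosine kinase gene and host of mir-2b-1, had one of 1822, rank 158, at 19165 bp. The spi locus thus had a weak peak near its hairpins and a high one at the host's start, and mir-2b-1 had one at the host's start alone. CG5953, host of mir-4943, had 1986.9, rank 130, and MRP, a transporter gene that hosts mir-9382, had 1217.8, rank 382.

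Lower peaks lay at the starts of Sxl, the sex determination gene that hosts mir-4956 (853.6), of the synaptic gene Nrx-1 with mir-4952 (830), and of the cell-cycle kinase gene grp with mir-9c, mir-306, mir-79 and mir-9b (406). The start of E2f1, a cell-cycle transcription factor gene that hosts mir-11 and mir-998, had 208.4. Members without a summit near the hairpin that had one at the start of a non-coding host included mir-10 (196.7 at lncRNA:CR42651) and mir-bft (179.6 at lncRNA:CR43314). In the plot of host starts, most points lie beyond 2000 bp from their hairpin.

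**Figure D4:**
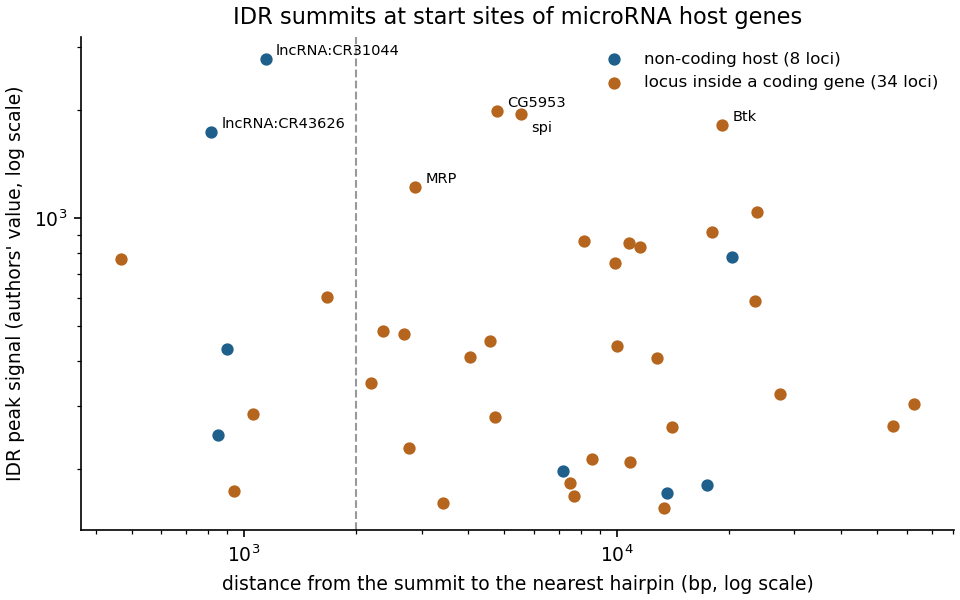
Signal of the highest IDR summit within 500 bp of an upstream start site of a same-strand host (y axis, authors' value, log scale) by its distance to the nearest hairpin (x axis, bp, log scale), for 8 loci outside and 34 inside coding genes. The dashed line stands at 2000 bp; 8 of the 42 points lie left of it, and the 6 highest are named by host.

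The sequence under the summits was searched for E-boxes in the 101 bp windows. CANNTG, which reads the same on both strands in its fixed letters, was present in 16 of 46 member windows (34.8%, 21.4 to 50.2%), against 32.3% of all IDR windows. CATATG was in 5 of 46 (10.9%, 3.62 to 23.6%), against 4%, and that background lies within the interval. These were at mir-9378, mir-955 and mir-2282 (in sty, an inhibitor of receptor tyrosine kinase signalling), printed above, and at mir-4981 and mir-281-1. CAGCTG was in 1 of 46 (2.17%, 0.055 to 11.5%), against 2.28%. The GC content was 31.66% ± 7.539 in member windows and 30.86% ± 8.206 in all IDR windows (SD over 46 and 6496 windows). A match describes the letters only.

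The genes that make and use microRNAs were examined from a set list of 16. An IDR summit lay within 500 bp of a start site of 3 of them (18.8%, 4.05 to 45.6%), against 18.8% of coding genes. These were r2d2, the partner of Dicer-2 in the small interfering RNA pathway (signal 651.9, rank 1093, at 137 bp upstream), Cbp20, of the nuclear cap-binding complex (280.2, rank 3466), and Nbr, the nuclease that trims microRNA 3′ ends (178.1, rank 5620). None lay at the starts of drosha, pasha, Dcr-1, loqs, AGO1 or gw, the core of the microRNA pathway, nor at those of Ranbp21, Dcr-2, AGO2, Hen1, Tailor, Ars2 or Cbp80. Within 2000 bp of the whole gene the count was 7 of 16 (43.8%, 19.8 to 70.1%), against 36.4% of coding genes. Both intervals held the share of coding genes.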

How the data were processed

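Peak lists were used as the authors deposited them, on dm6 per the labels. The authors' deposited columns give a signal per peak and a −log10 q-value. Which aligner and caller made the lists is not given in the sources used here. Replicate lists and the IDR list were used whole, and 0 columns of per-sample values were left out. The depth is unknown, since the files hold no read counts.

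Each summit was the peak start plus its summit offset. Peaks were ranked by signal within a list, and joined to genes of Ensembl release 115, whose assembly is that of dm6, and to RefSeq for sequences. Coding genes on either strand counted as hosts of a locus. Shares have exact Clopper-Pearson 95% intervals, for counting error only. With 1 group of 2 replicates, no p-values were computed, and differences between classes were not tested. The counting was checked on simulated data. Python 3.11.15, pandas 2.3.3, numpy 2.4.6 and scipy 1.17.1 were used.

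The members and lists were chosen with earlier results of these data known. Named are the 15 loci with the highest IDR summit, a list of well-known microRNAs with or without a peak, their hosts and the 16 pathway genes, with a few further hosts and loci chosen after their values were seen. Alternatives varied the distance, the locus gap, the host strand, the list and the overlap.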

Additional observations from a re-analysis of the deposited data

How the results depend on the processing

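The count of loci with a summit followed the distance and the length of the list. It is given over all 198 loci, the 140 inside and the 56 outside coding genes. Within 500 bp it was 8, 6 and 2, and within 5000 bp 77, 50 and 26. Within 1000 bp it was 21 over all loci and 9 outside coding genes. Of positions inside and outside coding genes, 5.09% and 4.8% had a summit within 500 bp, and 34% and 23.1% within 5000 bp. With the 3248 strongest IDR peaks the count of loci was 16, 7 and 9, and with 2 times as many pooled peaks 59, 39 and 19. No share of positions was computed for these 2 lists. With each member counted alone, it was 26 of 94 outside coding genes (27.7%), against 16 of 56 loci (28.6%), so the share hardly moved. Leaving out a replicate gave between 34 and 34 loci in all, between 17 and 18 inside and between 15 and 16 outside. With only coding genes on the hairpin's own strand counted as hosts, 17 of 74 loci outside had a summit (23%, 14 to 34.2%). That share was lower than the 28.6% with hosts on either strand. Inside coding genes it was 16 of 121 (13.2%, 7.75 to 20.6%). A share of positions was not computed for this host rule.

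The median signal was 466.7 for summits within 500 bp of a hairpin and 590.9 among the 3248 strongest IDR peaks. The share near a start site was 17.4% within 200 bp. The share with a partner in both replicates was 78.3% with an overlap of at least 50% of each peak, and 84.8% among the strongest peaks. With the strongest peaks only, the pooled list gave 35 loci and the replicates 34 and 34. Within 500 bp, the pooled list gave 45 of 198 loci, replicate 1 gave 47 and replicate 2 gave 42. No share of positions was computed for these lists at 500 bp. Among pathway genes, 7 had a summit within 2000 bp of the gene. The distance and list settings change the counts by construction. No paired analysis was possible because there is only 1 group. Read depth limits the counts to what the lists hold.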
